A study of Rattus norvegicus with 10 samples.

Results

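The hepatocyte identity transcription factors are the DNA-binding proteins that switch on and hold the gene programme of the liver cell. They were taken here as 9 genes by name: Hnf4a, Foxa1, Foxa2, Foxa3, Cebpa, Cebpb, Prox1, Onecut1 and Nr5a2. Of these, 8 had a row among the 12555 genes of the deposited table, and all 8 passed the filter on low counts, which kept 12367 genes. The rows are Hnf4a (ENSRNOG00000008895), Foxa1 (ENSRNOG00000009284), Foxa2 (ENSRNOG00000013133), Foxa3 (ENSRNOG00000014256), Cebpb (ENSRNOG00000057347), Prox1 (ENSRNOG00000003694), Onecut1 (ENSRNOG00000008095) and Nr5a2 (ENSRNOG00000000653). Cebpa was not analysed here. RNA sequencing was carried out on 5 rat livers of offspring whose dams ate a diet with 30% fewer calories through gestation (labelled SGA, here restricted) and on 5 livers of offspring of dams on a normal diet (labelled AGA, here normal). All 10 are labelled wild type, and no other treatment is named. The labels call the material both a hepatocyte line and liver, while the study's design text speaks of liver tissue. Neither age, sex, litter nor the hour of collection is given, so each p-value reflects only how these libraries scatter, which may be technical.

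HNF4A is a nuclear receptor that sits on the enhancers of a large share of liver genes. The forkhead proteins FOXA1, FOXA2 and FOXA3 are pioneer factors, able to bind their sites in closed chromatin and open them for other factors. C/EBPβ (Cebpb) is a leucine-zipper factor of the acute-phase and fasting responses, PROX1 is a homeobox factor and corepressor that keeps hepatocytes from bile duct fate, ONECUT1 (HNF6) drives biliary and hepatic development and sex-dependent liver genes, and NR5A2 (LRH-1) controls bile acid and cholesterol genes. In liver these factors bind one another's promoters and form a cross-regulating network.

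Promoters of the members were searched for short motifs of these and other factors. RefSeq's promoter table for the rat build GRCr8 held windows for 6 of the 9 names, 7 windows in all, each from 250 bases before the start of the transcript to 50 after it. The 4 windows printed here belong to the most stable member (Hnf4a, with an upstream and a downstream start), to the most variable member with a window (Foxa2) and to the member called higher in restricted livers (Cebpb). Capitals mark exact matches, on either strand, to ATTGAT (the core of ONECUT1 sites), GTTAAT (a core of HNF1 sites), TGTTTGT (a forkhead site), TGTTTAC (another forkhead site), TTGCNNAA (C/EBP), TGACG (a core of CREB and ATF sites), CAAGGTCA (NR5A2), CAAAGTCCA (HNF4A) and TATAAA (the box that TBP binds).
Hnf4a upstream start, chr3:172605970-172606269, plus strand: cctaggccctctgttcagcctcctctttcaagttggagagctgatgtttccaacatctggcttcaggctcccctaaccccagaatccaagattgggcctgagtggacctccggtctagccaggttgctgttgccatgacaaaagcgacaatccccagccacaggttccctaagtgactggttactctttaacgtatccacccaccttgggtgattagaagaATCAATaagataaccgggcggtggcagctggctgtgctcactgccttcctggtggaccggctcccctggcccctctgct
Hnf4a downstream start, chr3:172641586-172641885, plus strand: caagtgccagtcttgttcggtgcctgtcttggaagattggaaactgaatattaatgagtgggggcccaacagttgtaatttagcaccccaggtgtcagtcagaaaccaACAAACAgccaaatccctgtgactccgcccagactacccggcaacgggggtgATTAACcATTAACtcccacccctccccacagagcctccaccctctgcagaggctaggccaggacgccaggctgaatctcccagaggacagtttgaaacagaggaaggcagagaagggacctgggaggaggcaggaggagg
Foxa2, chr3:155927459-155927758, minus strand: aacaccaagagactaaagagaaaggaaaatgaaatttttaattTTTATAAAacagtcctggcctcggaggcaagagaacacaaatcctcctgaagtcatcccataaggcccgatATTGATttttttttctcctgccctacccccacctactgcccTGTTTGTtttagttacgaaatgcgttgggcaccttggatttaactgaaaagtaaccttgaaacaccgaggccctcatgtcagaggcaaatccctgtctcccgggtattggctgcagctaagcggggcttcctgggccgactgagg
Cebpb, chr3:176816755-176817054, plus strand: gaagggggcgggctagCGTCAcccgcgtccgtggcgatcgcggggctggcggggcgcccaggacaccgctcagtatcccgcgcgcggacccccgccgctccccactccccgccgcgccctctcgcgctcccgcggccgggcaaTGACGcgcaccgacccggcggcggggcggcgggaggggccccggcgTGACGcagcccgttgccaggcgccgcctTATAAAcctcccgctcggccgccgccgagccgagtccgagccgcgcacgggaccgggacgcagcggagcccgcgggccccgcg

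Positions in these windows count from the transcript start, with -1 the base just before it, and name the most upstream base of the match. The upstream Hnf4a window held ATTGAT at -29 on the minus strand, and the downstream one held GTTAAT at -90 and -83 and TGTTTGT at -142, all on the minus strand. The Foxa2 window held ATTGAT at -136 and TGTTTGT at -95, beside a pair of overlapping TATAAA matches at -207 and -205. The Cebpb window, at 81.0% G and C against a median of 51.7% over all promoters, held TGACG at -234, -107 and -61 and TATAAA at -33. Among 33469 rat promoters of the same length, 8.06% held ATTGAT, 7.45% GTTAAT, 6.42% TGTTTGT, 3.78% TGTTTAC, 10.6% TTGCNNAA, 21.2% TGACG, 1.52% CAAGGTCA, 0.391% CAAAGTCCA and 14.2% TATAAA. In the windows not printed here the only motif matched was TATAAA. No window of any member held TGTTTAC, TTGCNNAA, CAAGGTCA or CAAAGTCCA. A match is a match of letters and not a measured binding site.

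Total counts ran from 14936156 to 22104957 per library. Of the 12367 genes tested, 506 (4.09%) passed an adjusted p of 0.05 in edgeR's quasi-likelihood test with Benjamini-Hochberg adjustment over all tested genes, 231 (1.87%) higher and 275 (2.22%) lower in restricted livers. That count was 231 without restricted library 2, 301 without restricted library 4, and 265, 226 and 213 without normal libraries 3, 4 and 5. The balance of directions also moved: with Kdm5d as a term in the fit 102 genes were higher and 19 lower, and for restricted library 5 alone against the normal libraries 632 were higher and 170 lower. Hepatocyte markers were abundant in every library. Their 12 tested members summed to 164513 to 237601 CPM (counts scaled to library size) in restricted and 180216 to 211806 CPM in normal livers. Alb alone made up 99848 to 155972 CPM across the 10 libraries. Markers of other liver cells were present too, so the libraries are not hepatocytes alone. All 11 Kupffer cell and macrophage markers had a positive log2 difference (median 0.67, none called by edgeR, 7 at an unadjusted p under 0.05). They summed to 1030 to 2559 CPM in restricted and 929 to 1205 CPM in normal livers. Of all 12367 genes, 6462 were positive and 2484 had an unadjusted p under 0.05. The 6 T and NK cell, 5 erythroid (1 called) and 3 B cell markers tested were also all positive (medians 1.26, 0.69 and 0.34). Endothelial (8 of 10 positive), stellate (6 of 11) and cholangiocyte (4 of 9) markers were mixed. In bulk samples, fewer cells of a type and less RNA per cell cannot be told apart. Reads of Kdm5d, a Y-linked gene, were absent from restricted libraries 1 to 4. They numbered 309 in restricted library 5 and 280 to 392 in the normal libraries. Cyp2c13 and Cux2, also sex markers, split the libraries likewise, though Cyp2c12 (below) did not. Cyp2c13 stood at 1.29 to 8.29 CPM in restricted 1 to 4, 1035 in restricted 5 and 154 to 2203 in normal livers. Cux2 stood at 13.6 to 24.0, 1.74 and 1.07 to 5.48 CPM in the same order. In 9 of 10 libraries this pattern ran with the diet. Sex and diet therefore cannot be told apart in the comparison of the groups. For that reason values for restricted library 5 alone against the 5 normal libraries stand beside the main results of Foxa1, Foxa2, Cebpb and Prox1. A fit with Kdm5d as a term likewise rests mostly on restricted library 5 for its diet difference.

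Among the members, Foxa1 was lower and Cebpb was higher in restricted livers, Prox1 was higher in every restricted library but missed the threshold after adjustment, and the other 5 did not pass the test. The 2 of 8 members called stand against 4.09% of all tested genes, and the 3 of 8 whose groups did not overlap (Foxa1, Cebpb and Prox1) stand against 6.35% of all tested genes. These 3 were also those with an unadjusted p under 0.05, which 20.1% of all tested genes had. They were called by DESeq2 as well, which called 8.82% of the genes it adjusted, and in the authors' deposited table, where 8.48% of the genes have an adjusted p under 0.05. By the authors' rule of p under 0.05 and an absolute log2 fold change above 1, which 3.82% of the table met, 0 of the 8 passed. The exact permutation test, 2-sided over 5 against 5 libraries, gave p = 0.00794 for the 3, the smallest it allows, and 0.127 to 0.921 for the other 5. Groups that do not overlap always give that smallest value, so for the 3 it adds nothing to the ranges.

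**Figure D1:**
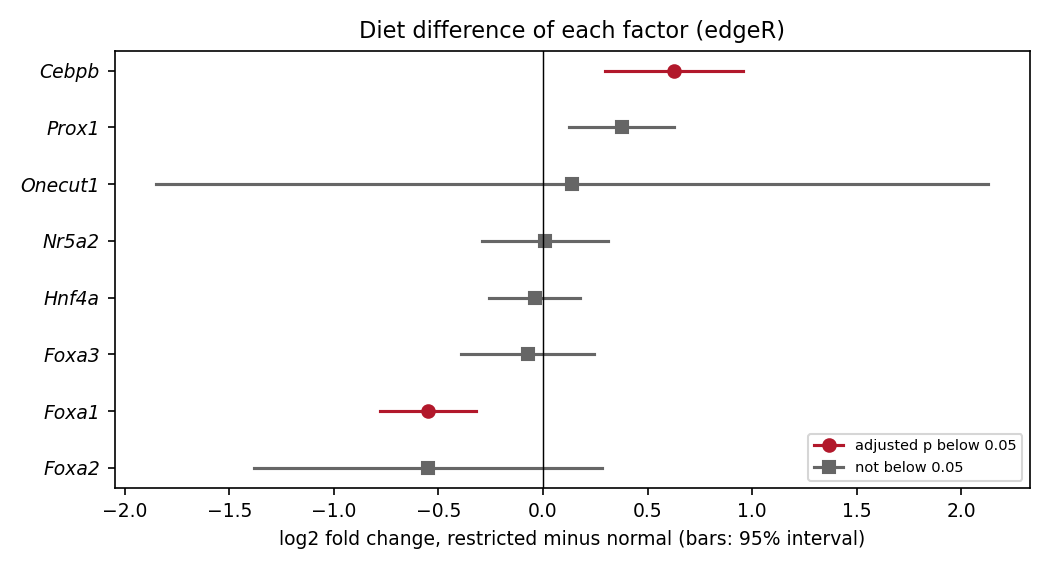
Log2 fold change of each member, restricted over normal, with its 95% interval from edgeR's quasi-likelihood fit (5 libraries a group, called members in red). Foxa1 lies at -0.55 and Cebpb at 0.62, while the interval of Onecut1 runs from -1.85 to 2.13.

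On the deposited FPKM scale (fragments scaled by transcript length and library depth), Cebpb had the highest level of the members and Hnf4a the next. The order of different genes depends on the transcript lengths used, and the annotation behind them is not named. Without scaling by length this pair was reversed, at a mean of 504 CPM for Hnf4a and 198 CPM for Cebpb over all 10 libraries. Cebpb averaged 102 FPKM in restricted and 65.4 FPKM in normal livers, and Hnf4a 35.2 FPKM in restricted and 35.7 FPKM in normal livers. Cebpb lay above Hnf4a, and Hnf4a above Foxa3, in 10 of 10 libraries. Below these, neighbours in the order were not separated by their spread. Foxa3 (18.5 FPKM in restricted, 19.1 FPKM in normal livers) exceeded Foxa2 (12.5 FPKM in restricted, 18.2 FPKM in normal livers) in 7 libraries, and Foxa2 exceeded Prox1 (11.9 FPKM in restricted, 9.02 FPKM in normal livers) in 6, of which 1 was restricted and 5 were normal. Prox1 exceeded Onecut1 (10.04 FPKM in restricted, 9.20 FPKM in normal livers) in 5 libraries, and Onecut1 exceeded Nr5a2 (7.42 FPKM in restricted, 7.26 FPKM in normal livers) in 6. At the bottom, Nr5a2 and Foxa1 (5.84 FPKM in restricted, 8.42 FPKM in normal livers) changed places between the groups: Nr5a2 was the higher of the pair in 4 of 5 restricted and in 1 of 5 normal livers. The counts behind these levels ran from 69 for Onecut1 to 10928 for Hnf4a. Even the lowest mean level among the members stood at percentile 74.0 of all genes in the table, and the highest at percentile 96.9.

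**Figure D2:**
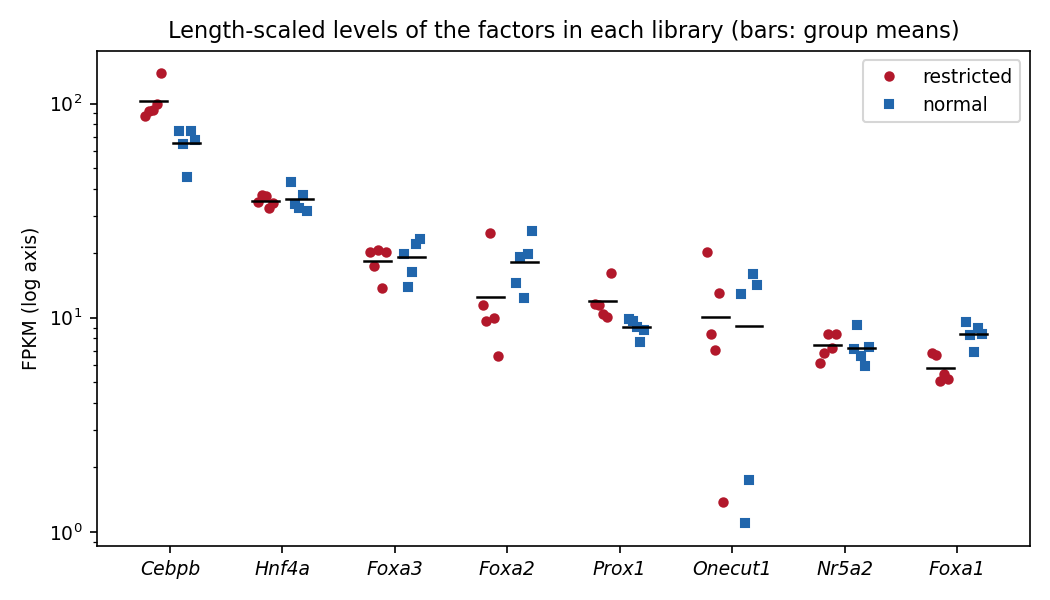
Deposited FPKM of each member in every library (log axis), in order of mean level, with restricted libraries left of normal libraries and group means as bars. Cebpb and Hnf4a separate from the rest, and Onecut1 spreads over the widest range.

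Hnf4a was the steadiest member. Its level was 487, 490.4, 546, 505 and 459 CPM (scaled by the trimmed mean of M-values) in restricted livers 1 to 5, against 599, 499, 472, 525 and 464 CPM in normal livers 1 to 5. The groups overlapped throughout, the lowest library being restricted 5 and the highest normal 1. The log2 fold change was -0.04 ± 0.10 (SE, 95% interval -0.26 to 0.18, adjusted p = 0.860 by edgeR's quasi-likelihood test). The interval bounds the change of Hnf4a, not its protein or its activity. Its SD within groups, 0.12 on the log2 scale, was at percentile 10.02 of all tested genes.

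The 3 FOXA genes behaved differently from one another. Foxa1 was lower in restricted livers, at 33.2, 30.2, 26.0, 29.3 and 24.2 CPM, against 46.1, 41.9, 34.8, 43.5 and 43.1 CPM in normal livers. Every restricted library lay under every normal library, the closest being restricted 1 and normal 3. Foxa1 averaged 28.6 ± 3.54 CPM in restricted and 41.9 ± 4.24 CPM in normal livers (SD, n = 5 each), 0.684-fold, with a log2 fold change of -0.55 ± 0.11 (SE) and an adjusted p of 0.0155 by edgeR's quasi-likelihood test. In the authors' deposited table its adjusted p is 0.000326. Foxa1 passed with each of the 10 libraries left out, and restricted library 5 alone against the normal libraries gave -0.79 on the log2 scale (adjusted p = 0.0285 by edgeR, the lone library being assumed to vary like the others). With Kdm5d as a term in the edgeR fit the log2 fold change of Foxa1 was -0.81 and its adjusted p 0.0598. That fit rests mostly on restricted library 5 for its diet difference, so it is not a separate check.

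Foxa2, the FOXA member best known for its tie to fasting and insulin, was the more variable paralog. It stood at 25.1, 19.5, 57.2, 24.1 and 13.8 CPM in restricted livers, against 31.4, 43.7, 27.7, 43.5 and 58.1 CPM in normal livers. Restricted library 3 was close to the highest normal library, and the other 4 restricted libraries lay below all 5 normal ones. The log2 fold change was -0.55 ± 0.37 (SE, 95% interval -1.38 to 0.28, adjusted p = 0.438 by edgeR), so a fall of the size seen for Foxa1 and no change both lie within it. Without restricted library 3 the value was -0.98 with an adjusted p of 0.0529 by edgeR. Restricted library 5 alone against the normal libraries gave -1.56 on the log2 scale.

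Foxa3, which had the highest mean FPKM of the FOXA genes in both groups without standing clear of Foxa2, gave 59.7, 48.0, 64.7, 45.1 and 57.5 CPM in restricted livers, against 58.4, 42.8, 49.8, 65.6 and 72.5 CPM in normal livers. The groups overlapped over most of their range. Its log2 fold change was -0.07 ± 0.15 (SE, adjusted p = 0.822 by edgeR). Of the summed FPKM of the 3 paralogs, Foxa3 made up 51.1 ± 8.17% in restricted and 41.9 ± 5.02% in normal livers, Foxa2 32.4 ± 10.5% in restricted and 39.4 ± 5.89% in normal livers, and Foxa1 16.5 ± 3.83% in restricted and 18.7 ± 2.66% in normal livers (SD, n = 5 each). The sum was 36.8 ± 8.42 FPKM in restricted and 45.8 ± 8.36 FPKM in normal livers. These shares were not tested.

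**Figure D3:**
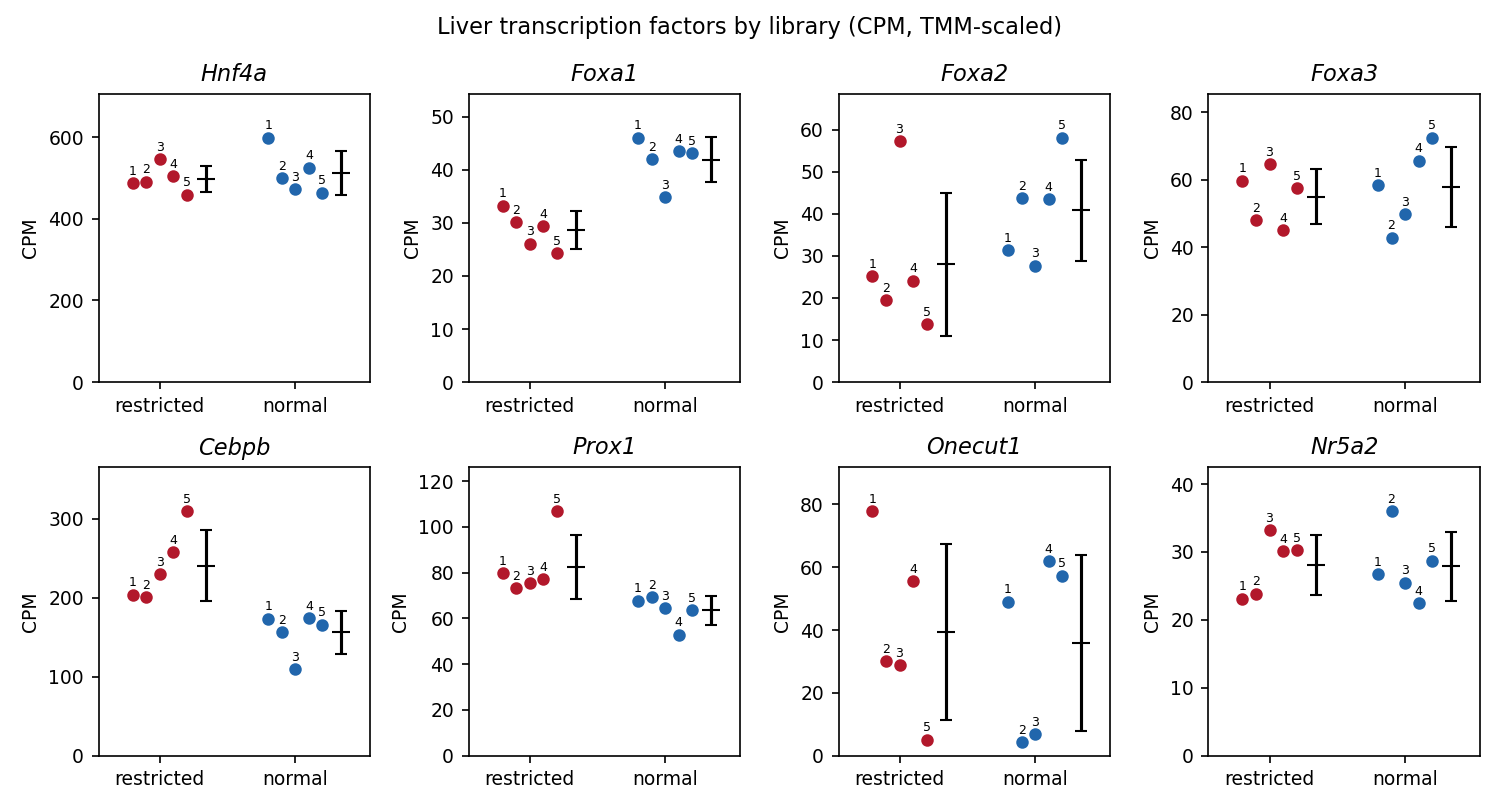
TMM-scaled CPM of each member in every library, restricted left of normal, with the group mean and SD to the right of each group's points (n = 5) and library numbers above the points. The points of the groups do not overlap for Foxa1, Cebpb and Prox1, and 3 libraries stand low for Onecut1.

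Cebpb was higher in restricted livers. It gave 204, 201, 230.0, 258 and 309.8 CPM in restricted livers, against 174, 157, 109, 174 and 166 CPM in normal livers. The lowest restricted library exceeded the highest normal library, restricted 5 stood highest and normal 3 lowest. The means were 240.4 ± 45.1 CPM in restricted and 156 ± 27.1 CPM in normal livers (SD, n = 5 each), 1.54-fold, with a log2 fold change of 0.62 ± 0.15 (SE) and an adjusted p of 0.0403 by edgeR's quasi-likelihood test. This call rested close to the threshold: without restricted library 1 the adjusted p was 0.0402, and without each of the other 9 libraries in turn it lay between 0.0517 and 0.0843, with log2 fold changes of 0.52 to 0.68. Restricted library 5 alone gave 0.99 (adjusted p = 0.0287 by edgeR), and the other 4 restricted libraries gave 0.52 (adjusted p = 0.0650). With Kdm5d as a term in the edgeR fit, which again rests mostly on restricted library 5, the log2 fold change of Cebpb was 0.99 and its adjusted p 0.0594. Macrophages also express Cebpb. The summed macrophage markers reached 2559 CPM in restricted library 5, the library highest for Cebpb, and at most 1974 CPM in the other restricted libraries. Csf1r and Clec4f, a pair of these markers, were next highest in restricted library 2, at 209 CPM for Csf1r and 381 CPM for Clec4f, and that library was the lowest restricted one for Cebpb. The part of these cells in the result was not tested.

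Prox1 was higher in each restricted library. Its level was 79.7, 73.4, 75.5, 77.2 and 107 CPM in restricted livers, against 67.8, 69.2, 64.4, 52.9 and 63.7 CPM in normal livers. The groups did not overlap, though restricted 2 and normal 2 were close, and restricted 5 stood well above the rest. The log2 fold change was 0.38 ± 0.12 (SE, 95% interval 0.12 to 0.63, 1.30-fold), with an adjusted p of 0.0949 by edgeR's quasi-likelihood test. DESeq2 gave an adjusted p of 0.0436, and the authors' deposited table gives 0.0440. Without restricted library 5 the log2 fold change was 0.27 and the adjusted p 0.142, and restricted library 5 alone gave 0.75 (adjusted p = 0.0190 by edgeR).

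Onecut1 varied most among the members, and its low libraries fell in both groups. It gave 77.9, 30.0, 28.7, 55.5 and 5.05 CPM in restricted livers, against 49.1, 4.39, 6.89, 61.9 and 57.3 CPM in normal livers. Restricted library 5 and normal libraries 2 and 3 stood low, with 81, 69 and 103 reads, and the remaining 7 libraries lay between 28.7 and 77.9 CPM. The log2 fold change was 0.14 ± 0.87 (SE, 95% interval -1.85 to 2.13, adjusted p = 0.949 by edgeR), an interval that leaves a large change in either direction undecided. Its SD within groups, 1.68 on the log2 scale, ranked 50 among 12367 tested genes, the members next to it being Foxa2 (0.61, percentile 90.03) and Cebpb (0.27, percentile 56.8). All 3 low libraries are among the 6 with Kdm5d reads, and the other 3 with Kdm5d reads, normal 1, 4 and 5, were not low.

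A pair of genes chosen after their values were seen stood apart in those same libraries. Bcl6, a repressor with sex-dependent expression in rodent liver, gave 12.7, 9.49, 6.63, 21.1 and 76.6 CPM in restricted livers, against 9.29, 50.8, 48.6, 10.9 and 8.83 CPM in normal livers. It was thus highest in the 3 libraries in which Onecut1 was lowest. Prlr, the prolactin receptor, gave 71.9, 62.6, 78.0, 82.3 and 12.5 CPM in restricted livers, against 42.8, 25.5, 16.0, 78.2 and 57.8 CPM in normal livers, the 3 lowest values again being restricted 5 and normal 2 and 3. Hnf4a and Foxa2, both known targets of ONECUT1, each had their lowest value of all 10 libraries in restricted 5, at 459 CPM for Hnf4a and 13.8 CPM for Foxa2. In normal 3, Foxa2 was at its lowest among the normal livers (27.7 CPM) and Hnf4a at its second lowest (472 CPM). In normal 2 both stood within the range of the other normal livers, at 43.7 CPM for Foxa2 and 499 CPM for Hnf4a. Over all 10 libraries, Onecut1 and Hnf4a gave Pearson's r = 0.372 (Spearman's rho 0.152), and Onecut1 and Foxa2 gave 0.261 (0.103). A tie of Onecut1 to the level of these genes was not tested.

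**Figure D4:**
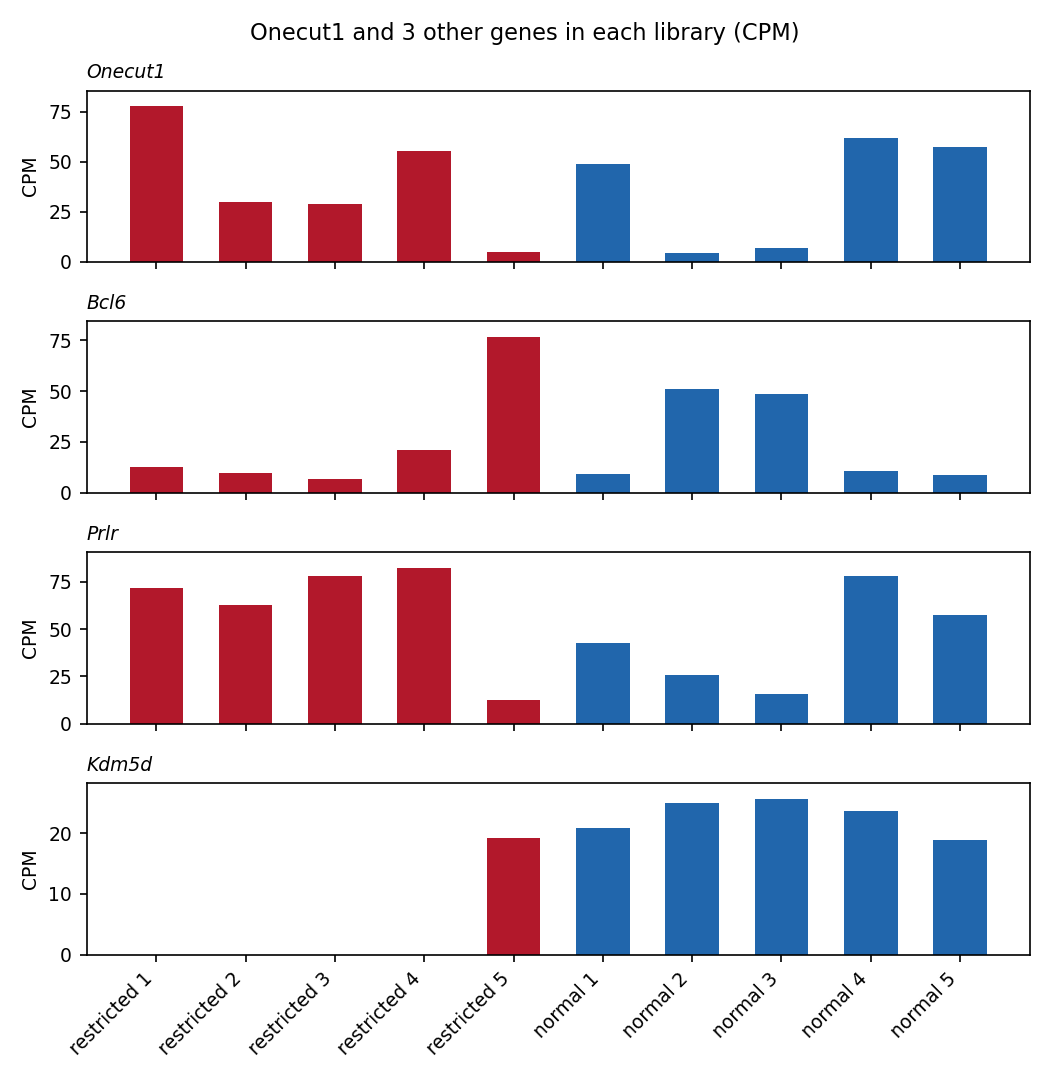
TMM-scaled CPM of Onecut1, Bcl6, Prlr and Kdm5d in each library (bars from 0), restricted libraries left of normal. Restricted 5 and normal 2 and 3 are low for Onecut1 and Prlr and high for Bcl6.

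Nr5a2 gave 23.1, 23.8, 33.2, 30.1 and 30.2 CPM in restricted livers, against 26.7, 36.0, 25.5, 22.5 and 28.7 CPM in normal livers. The groups overlapped over nearly their whole range. The log2 fold change was 0.01 ± 0.14 (SE, 95% interval -0.29 to 0.31, adjusted p = 0.979 by edgeR).

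Across the 10 libraries, 4 of the 28 pairs of members had an absolute Pearson's r above 0.6 on the log2 CPM scale. Foxa1 and Prox1 gave r = -0.781, Cebpb and Prox1 0.733, Foxa1 and Cebpb -0.675, and Foxa2 and Prox1 -0.672. After the group means were removed these were -0.421, 0.369, 0.0647 and -0.498, so that of Foxa1 and Cebpb was near 0 within groups. The largest within-group values among the 28 pairs were 0.747 for Foxa1 and Onecut1 and -0.665 for Prox1 and Onecut1. Without removal of the group means these were 0.247 and -0.360. Points share a library in each case, and no test was made. The gene most like each member over the 10 libraries, among 8052 genes of adequate level, was Utp25 for Hnf4a (r = 0.870), Cct6a, a chaperonin subunit, for Foxa1 (0.951), Ajm1 for Foxa2 (0.976), Timm44, of the mitochondrial import motor, for Foxa3 (0.875), Dnaja4, a co-chaperone, for Cebpb (0.990), Garre1 for Prox1 (0.964), Plbd1 for Onecut1 (0.922) and Ext2, which builds heparan sulfate, for Nr5a2 (0.889). The next was Creld2 for Hnf4a (0.853), Srpra for Foxa1 (0.948), Sord for Foxa2 (0.951), Eif2ak4 for Foxa3 (0.859), Pik3ap1 for Cebpb (0.946), Bbs2 for Prox1 (0.947), Naprt for Onecut1 (0.907) and Zbtb10 for Nr5a2 (0.882). Spearman's rho of these pairs ran from 0.770 for Creld2 to 0.988 for Dnaja4 and Srpra. Without the 2 libraries farthest from the member's median, r fell to 0.517 for Creld2, 0.641 for Bbs2 and 0.726 for Timm44, and lay at 0.790 or above for the others. With the group means removed instead, r was 0.802 for Cct6a and 0.751 for Srpra, and 0.853 to 0.977 for the others. Each gene was picked for the highest r among 8052 over only 10 libraries. A high r is therefore partly a product of the search, and no test was made.

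Of 33 other liver transcription factors tested, 1 was higher and 4 were lower, 15.2% called against 4.09% of all genes, with a median log2 fold change of -0.02 against 0.01 over all genes. Creb3l3, a membrane-bound factor of fasting lipid metabolism, gave 685 ± 100.5 CPM in restricted and 387 ± 43.1 CPM in normal livers (SD, n = 5 each), a log2 fold change of 0.82 ± 0.12 (adjusted p = 0.00557 by edgeR). Nfic, of the nuclear factor I family, gave 70.4 ± 4.596 CPM in restricted and 101.7 ± 10.9 CPM in normal livers (adjusted p = 0.00888). Both passed with each library left out. Srebf1, the driver of fatty acid synthesis, gave 75.4 ± 26.7 CPM in restricted and 212 ± 80.1 CPM in normal livers, a log2 fold change of -1.49 ± 0.29 (adjusted p = 0.0229), and passed with 5 of the 10 libraries left out. Zbtb20, a repressor of Afp, fell by 0.50 on the log2 scale (adjusted p = 0.0379) and passed with 2 of the 10 libraries left out. The fifth, Nfib, falls outside the rule for named genes and was picked after its value was seen, at -0.41 ± 0.10 (adjusted p = 0.0381). With Kdm5d as a term in the fit, none of the 9 called genes of this and the following lists passed. That fit rests mostly on restricted library 5 for its diet difference.

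Of 28 textbook HNF4A targets tested, none was higher and 2 were lower, 7.14% called against 4.09% of all genes (median -0.03). Ttr, the thyroxine carrier, gave 3649 ± 868 CPM in restricted and 5979 ± 1159 CPM in normal livers (SD, n = 5 each, adjusted p = 0.0497 by edgeR). It lay just under the threshold: with a library left out in turn the adjusted p of Ttr was 0.0185 to 0.131, and it passed only without restricted 3 or normal 1. Ttr is also on the FOXA list, where it was the 1 called gene of 10 (10% against 4.09% of all genes, median -0.05), and on the ONECUT1 list, which also holds Hnf4a and Foxa2, where it was the 1 called gene of 11 (9.09%, median -0.31). On the HNF4A list Nr1i2 had 0.67 (adjusted p = 0.0787) and Apoa4 -0.58 (adjusted p = 0.0816).

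Of 14 C/EBP targets, edgeR called 0 (2 at an unadjusted p under 0.05), while DESeq2 called 2 and limma-voom 1, and the median was 0.09. Serpina3n, an acute-phase protease inhibitor, came closest at -1.21 ± 0.31 (adjusted p = 0.0543 by edgeR). Cebpb itself, the factor of this list, was higher, while Pck1 at 0.54 (adjusted p = 0.397), Gys2 at 0.78 (0.154) and Hal at 0.43 (0.337) did not pass. Of 11 NR5A2 targets, 1 was called (9.09%, median -0.01): Abcg8, of the sterol exporter, gave 20.4 ± 8.12 CPM in restricted and 59.3 ± 21.5 CPM in normal livers (log2 fold change -1.54 ± 0.36, adjusted p = 0.0479 by edgeR). Abcg8 passed only without normal 3 (0.0278) and lay between 0.0538 and 0.106 without each of the other libraries. Its partner Abcg5 stood at -0.69 (adjusted p = 0.111) and Scarb1 at 0.27 (0.207). On the ONECUT1 list Pfkfb1 stood at -0.67 (adjusted p = 0.180). On the FOXA list Serpina1 stood at -0.71 (adjusted p = 0.231), Afp at -0.51 (0.255) and Igfbp1 at 0.60 (0.358). The Serpina1 row held few reads, from 7 in restricted library 4 to 22 in normal libraries 1 and 2. Its value therefore rests on low counts and does not describe an abundant transcript.

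Of 22 partners and modifiers of the factors, 1 was higher and none lower (4.55% against 4.09% of all genes, median 0.12). Trib3, a stress-induced pseudokinase that binds other signalling proteins, gave 19.9 ± 4.53 CPM in restricted and 6.85 ± 4.07 CPM in normal livers (SD, n = 5 each), a log2 fold change of 1.54 ± 0.32 (adjusted p = 0.0274 by edgeR). All 5 restricted libraries lay above all 5 normal libraries, and the highest normal library, normal 1, was at 14.0 CPM. Trib3 passed with 4 of the 10 libraries left out, with adjusted p of 0.00154 without normal 1 and up to 0.0730. Ddit3 (CHOP), a C/EBP-family factor that dimerises with C/EBPβ, had 0.69 (0.0937), Ppargc1b 0.87 (0.122) and Prkaa1, an AMPK subunit, 0.25 (0.134), none past the threshold.

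**Figure D5:**
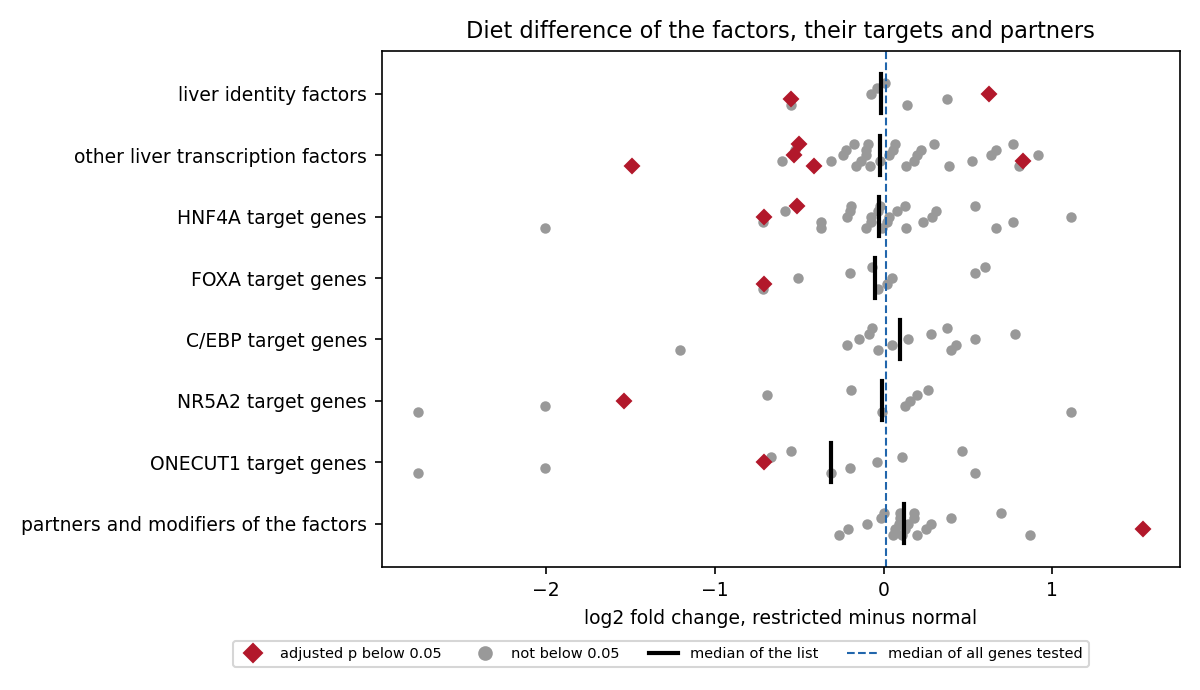
Log2 fold change, restricted over normal, of every tested gene of the members and the 7 other lists, with the called genes marked and each list's median. The medians lie between -0.31 for ONECUT1 targets and 0.12 for partners and modifiers.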

How the data were processed

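Libraries made from rat liver with the NEBNext Ultra kit were sequenced on an Illumina NovaSeq instrument, per the labels' protocols. Reads were filtered at a quality of Q30 and aligned with HISAT2, per the study's design text. bcl2fastq, fastp and HTSeq and the rat build rn7 are named in the submitters' processing notes, without versions. The annotation, the strand setting and the filter behind the table are not named by any label, note or header read here. Per the file headers, the authors deposited raw counts and FPKM for 10 libraries. The authors' table also gives, per the file headers, a fold change (ratio) with its log2 value, and a p-value with its adjusted value, for restricted over normal, and its test is not named.

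Counts were tested with edgeR 4.0.16 (filterByExpr with a minimum count of 10, TMM scaling, robust quasi-likelihood fit, R 4.3.3) on all 12367 genes that passed, with Benjamini-Hochberg adjustment over all of them and a threshold of 0.05. Levels between libraries are TMM-scaled CPM, and levels between genes are the deposited FPKM. The exact permutation test used mean log2 CPM with a prior count of 2. Named genes were the members, up to 4 genes of smallest p in each other list, and the 2 genes of highest Pearson's r with each member (mean log2 CPM of at least 3). A few genes that this rule names are not reported here. The members, the lists and the tests were chosen with earlier results of these data known. DESeq2 1.42.0, limma-voom 3.58.1, other scalings and filters, a replicate block, Kdm5d as a term and each library left out were alternatives. No 2 libraries of a group agreed within sampling noise (lowest chi-square per degree of freedom 21.2). Promoters were read from RefSeq's table for GRCr8, searched for exact matches on both strands.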

Additional observations from a re-analysis of the deposited data

Results flagged for a closer look

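Within a group of 5, the gap of a library to the nearest other was divided by the range of the group. A library was set apart where this ratio exceeded Dixon's 95% critical value, 0.71. Chance alone sets apart about 1 in 20 groups, and 72 groups of 36 genes were examined, of which 9 held such a library. Among the members, Foxa2 in restricted library 3 stood at 57.2 CPM, with the next restricted library at 25.1 CPM. Prox1 in restricted library 5 stood at 107 CPM (next 79.7 CPM), and Cebpb in normal library 3 at 109 CPM (next 157 CPM). Among the other genes, Creb3l3 in restricted library 4 stood at 864 CPM (next 661 CPM), Scarb1 in the same library at 222 CPM (next 171 CPM), Srebf1 in restricted library 3 at 121 CPM (next 70.7 CPM) and Trib3 in normal library 1 at 14.0 CPM (next 5.86 CPM). Kdm5d was at 19.3 CPM in restricted library 5 and at 0 in the other 4 restricted libraries. Cyp2c13, a male-biased gene of rat liver, was at 1035 CPM in restricted library 5 (next 8.29 CPM).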

How the results depend on the processing

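The labels give both groups replicate numbers 1 to 5, but same-numbered libraries did not deviate together (correlations of -0.185 to 0.121, 2 of 5 closest to their own number). With the replicate block, 265 genes, 1 member (Cebpb lost at 0.62, adjusted p = 0.0581 by edgeR) and 5 listed genes were called, against 506, 2 and 9. With Kdm5d as a term the calls were 121 genes (102 higher, 19 lower), 1 member and 0 listed genes. There Foxa1 (-0.81) and Cebpb (0.99) were no longer called and Prox1 (0.76) was. The diet difference of that fit rests mostly on restricted library 5, the only restricted library with Kdm5d reads. DESeq2 called 1049 genes and 23 listed genes, and Prox1 at 0.38. Restricted library 5 alone against the normal libraries, chosen after seeing the data, gave 802 genes (632 higher, 170 lower) and Prox1 at 0.75, now called. The cause of these differences was not tested.

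Leaving out a library in turn gave 213 to 470 genes, 1 to 2 members and 2 to 8 listed genes. Cebpb ran from 0.52 to 0.68. Values near 0 changed sign: Hnf4a ran from -0.0763 to 0.0223, Foxa3 from -0.164 to 0.0217, Onecut1 from -0.27 to 0.44 and Nr5a2 from -0.0569 to 0.120. Onecut1 was at -3.0 with Kdm5d as a term and at -2.83 for restricted library 5 alone, and Nr5a2 at -0.0119 with upper-quartile scaling. Among 25 other named genes, 389 of 475 values kept their direction and side of the threshold, 67 lost the call, 19 gained it and 0 changed sign. No scaling moved the median of all genes by 0.1. The lowest depth behind a member's value was 69 reads, for Onecut1 in normal library 2.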

Other observations

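A few liver genes known to respond to growth hormone were read after their values were seen. Igf1, the main circulating growth factor made by liver, gave 636 ± 174 CPM in restricted and 1359 ± 240.5 CPM in normal livers (SD, n = 5 each), a log2 fold change of -1.09 ± 0.19 (adjusted p = 0.00888 by edgeR), and its groups did not overlap. Socs2, a feedback inhibitor of that pathway, gave 26.7 ± 12.2 CPM in restricted and 87.1 ± 50.7 CPM in normal livers (adjusted p = 0.0915). Socs2 did not pass, nor did 2 other genes of that feedback: on the log2 scale Cish differed by -0.78 ± 0.67 (SE, adjusted p = 0.554) and Socs3 by 0.58 ± 0.24 (adjusted p = 0.203 by edgeR). Cyp2c12, a female-biased gene of rat liver and a known ONECUT1 target, gave 2278, 2198, 2714, 2206 and 298 CPM in restricted livers, against 3049.5, 1088, 497, 1100.0 and 1283 CPM in normal livers, its lowest values being those of restricted 5 and normal 3.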
